A study of Mus musculus with 24 samples.

Results

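Wild-type mouse naive CD4+ T cells that had been stimulated for 8 h through CD3 and CD28 were compared with unstimulated cells of the same kind. The comparison took every sample whose title gives the wild-type genotype and either the 8 h stimulation or no stimulation, which was 8 of the 24 samples of the series. The 8 h group held 4 samples of WT cells, strain C57BL/6, kept for 8 h on plate-bound antibodies to CD3 and CD28. The unstimulated group held 4 samples of WT C57BL/6 cells used directly after the sort. Both groups had been sorted by flow cytometry from spleen and peripheral lymph nodes with a gate for naive cells that included CD4+, CD44lo and CD25-, and the labels give no age. Samples of WT cells stimulated for 24 h, 4 in number, served to place the 8 h values in time, and the remaining samples, from CD4(cre)Raptor(fl/fl) mice, entered the estimate of spread and, through the mean over all samples, the choice of the probe set read for a gene. The unstimulated cells had no time in culture, so the effect of the antibodies and that of 8 h on a plate cannot be told apart. The labels do not say that replicates came from separate animals, and the p-values then measure the spread between these samples, which may be technical.

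A naive T cell is a small resting cell that circulates between blood and lymph nodes. The antibodies to CD3 and CD28 stand in for antigen and costimulation. Signals from the receptor reach the nucleus through calcineurin and the NFAT factors, through the MAP kinases and AP-1, and through protein kinase C and NF-kappaB. The cell then turns on cytokine and receptor genes, enlarges, builds ribosomes and mitochondria, and only later copies its DNA and divides.

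RNA was measured on Affymetrix arrays, and each value is a log2 intensity, so that a difference of 1 is a doubling. Over genes, replicates of a group correlated with r between 0.992 and 0.995, and samples of different groups with r between 0.937 and 0.959. Principal component 1 of the 8 arrays held 84.5% of their variance. As a guide to background, 119 genes of olfactory, vomeronasal and taste receptors and keratin-associated proteins, which T cells are not known to use, had a median level of 3.44, and 95% of them lay under 5.38. A level under 5.38 is called near background below, where a fold is that of the measured intensities only. Equal amounts of RNA were labelled and the arrays were scaled to nearly the same distribution, so all differences are relative to the total and say nothing about RNA per cell.

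Stimulation for 8 h moved a large part of the transcriptome in both directions, and the rises reached further than the falls. Of 17097 genes, 3229 were called higher and 3555 lower at an adjusted p under 0.05 (limma's moderated test with Benjamini-Hochberg adjustment), which is 18.9% and 20.8% of all genes, or 6784 and 39.7% in either direction. With a fold of at least 2 as well, 1149 were higher and 681 lower, or 6.72% and 3.98%. At 4-fold or more the counts were 257 higher and 50 lower, and 73 genes rose 8-fold or more, while the largest fall was 7.1-fold. Of the 257 genes that rose 4-fold or more, 72 were near background in unstimulated cells. The 4 samples of one group lay wholly above the 4 of the other for 6713 genes, 39.3% of all. The 25 largest rises and the 25 largest falls named below were taken only from called genes of this kind. For them the separation of the groups follows from that choice. For the genes named below the standard error of the log2 difference lay between 0.07 and 0.35. Where a gene had several probe sets the brightest one was read, and where averaging all of them moved the fold by more than 1.5 times that second value stands beside it. Replicate 1 of the 8 h group stood apart from the other 3. It was the highest of its group for 84.9% of the genes called lower by 2-fold or more, against 7.49%, 1.03% and 6.61% for replicates 2, 3 and 4, and the lowest for 69.4% of those called higher by 2-fold or more, so that it most often lay nearest to the unstimulated samples. Without it 1206 genes were higher and 796 lower by at least 2-fold. The plot of group means shows how the rises and falls were spread.

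**Figure D1:**
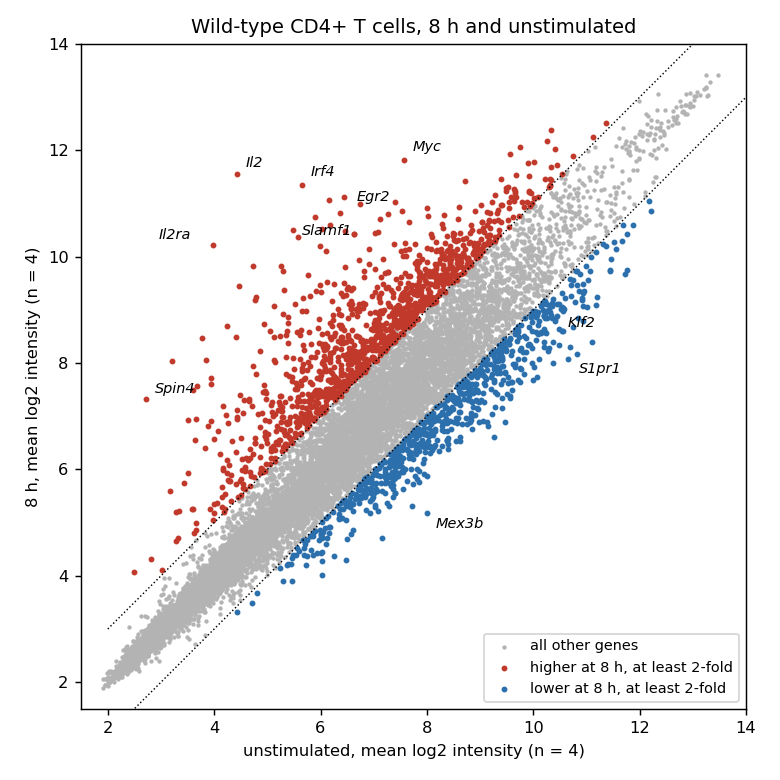
Mean log2 intensity of every gene in 8 h wild-type cells (vertical axis, n = 4) against unstimulated wild-type cells (horizontal axis, n = 4). Red points are genes called higher at 8 h with a fold of at least 2, blue points genes called lower with a fold of at least 2, grey points all others, dotted lines mark the 2-fold limits, and the red points reach further from the diagonal than the blue ones.

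The cells carried the markers of their label. Cd3e, a chain of the receptor complex, had 10.75 ± 0.15 at 8 h and 10.59 ± 0.03 in unstimulated cells (SD, n = 4 each) and was not called (adjusted p = 0.163). Cd4 itself was called lower, at 10.26 ± 0.13 at 8 h against 11.22 ± 0.08 in unstimulated cells. Cd44, the marker kept low by the gate, was at 6.99 ± 0.13 at 8 h and at 5.28 ± 0.25, near background, in unstimulated cells. The summed intensity of 13 B cell genes was 509 to 566 at 8 h and 464 to 603 in unstimulated cells, with 1 gene called higher and 1 lower (the higher call was lost without 8 h replicate 1 or 3 or unstimulated replicate 3 or 4, and the lower one without 8 h replicate 3 or unstimulated replicate 1). That of 14 myeloid genes was 633 to 680 at 8 h and 599 to 660 in unstimulated cells, with 2 lower (1 without 8 h replicate 2 or without unstimulated replicate 1 or 3), and that of 7 dendritic cell genes 259 to 281 at 8 h and 300 to 362 in unstimulated cells, with 3 lower (0 without 8 h replicate 3 and 1 without unstimulated replicate 3). That of 6 CD8 T cell genes was 248 to 265 at 8 h and 232 to 294 in unstimulated cells, with 1 lower. Among NK cell genes 2 of 9 were lower, and the sum of the 9 was 436 to 491 at 8 h and 656 to 713 in unstimulated cells. Over all genes 18.9% were called higher and 20.8% lower. Klrd1, a lectin-like receptor, fell to 4.71 ± 0.36 at 8 h, against 7.15 ± 0.24 in unstimulated cells, while the NK marker Klrb1c was near background, at 4.34 ± 0.15 at 8 h and 4.53 ± 0.13 in unstimulated cells. The part of other cells in the results was not tested. In RNA from a mixed sample, fewer cells of a type and less RNA per cell cannot be told apart.

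Most genes of the immediate early list were higher 8 h after stimulation began, and Nr4a1, Egr2, Egr1 and Nr4a3 were lower at 24 h than at 8 h. Of 13 measured genes of this list 9 were higher and 1 lower, against 18.9% and 20.8% of all genes. The median difference of the list was 1.10, against -0.03 over all genes. Nr4a1, an orphan nuclear receptor gene that answers to receptor signals, had 10.44, 10.36, 10.41 and 10.31 in the 8 h samples, against 5.77, 5.47, 5.41 and 5.64 in the unstimulated samples. Egr2, a zinc finger factor of the NFAT response, had 11.19, 11.07, 11.14 and 11.07 at 8 h, against 6.62, 6.45, 6.66 and 6.03 unstimulated. Egr1, another member, had 10.96, 10.72, 10.83 and 10.78 at 8 h, against 6.31, 6.56, 6.22 and 6.35 unstimulated. For all 3 genes every 8 h sample lay above every unstimulated one, with rises of 28-fold, 25.5-fold and 22.1-fold (adjusted p = 1.32e-21, 1.37e-20 and 4.16e-21). On the log2 scale the difference for Nr4a1 was 4.81 ± 0.11 (SE). Nr4a3 rose 12.4-fold (and was 1.88-fold lower at 24 h than at 8 h) and Egr3 1.94-fold. Egr4 and Ier3 lay at 5.47 ± 0.12 and 4.98 ± 0.06 at 8 h and 5.39 ± 0.12 and 4.97 ± 0.34 unstimulated and were not called (adjusted p = 0.645 and 0.972), and Ier5 fell 1.86-fold. By 24 h Nr4a1 was 2.61-fold, Egr2 2.0-fold and Egr1 1.88-fold lower than at 8 h (adjusted p = 8.9e-11, 2.55e-07 and 2.55e-07), in a comparison that called 11.0% of all genes lower and 17.4% higher (1878 and 2967 genes, or 3028 and 2452 with the arrays centred on their medians).

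The AP-1 family, dimers of Fos and Jun proteins, rose in its Fos genes and in Junb. Fos had 7.41, 7.57, 7.36 and 7.23 in the 8 h samples, against 4.75, 4.72, 3.67 and 4.81 in the unstimulated samples, a rise of 7.49-fold from a level near background. Fosl1, a Fos relative induced by MAP kinases, rose 6.1-fold and Fosl2 2.9-fold, whereas Jun and Jund fell 1.36-fold and 1.23-fold with overlapping groups (neither was called without 8 h replicate 4, nor Jun without unstimulated replicate 4). Junb was higher by 1.49-fold. Batf, a partner of Jun in lymphocytes, differed by -0.12 on the log2 scale and was not called (adjusted p = 0.441). In all, 9 of 18 genes of the AP-1, BATF and Maf list were higher and 2 lower, against 18.9% and 20.8% of all genes.

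NF-kappaB genes had 9 of 18 higher and 2 lower, against 18.9% and 20.8% of all genes. Rel, the subunit c-Rel that T cells need for cytokine genes, had 9.72, 9.68, 9.92 and 9.92 in the 8 h samples, against 8.09, 8.15, 8.30 and 8.15 in the unstimulated samples. Nfkbid, a nuclear inhibitor-like protein that works with Rel, had 9.37, 9.48, 9.56 and 9.49 at 8 h, against 6.08, 5.95, 5.82 and 6.14 unstimulated. Both genes were higher in every 8 h sample, by 3.11-fold and 11.1-fold. Malt1, the protease of the signalling complex upstream, rose 2.93-fold and the inhibitor gene Nfkbib 2.93-fold (1.88-fold with all probe sets). Cyld, a deubiquitinase that limits the pathway, fell 2.19-fold and Tnip1, a partner of the brake A20, 2.38-fold. Nfkbia and Tnfaip3, the classical feedback inhibitors, were not called, with differences of -0.07 and 0.09 on the log2 scale (adjusted p = 0.581 and 0.686). With cyclic loess 4 genes of the list were lower.

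Genes that damp MAP kinase signals were among the largest rises. Spry1, a Sprouty inhibitor of the Ras pathway, had 9.26, 9.53, 9.55 and 9.48 in the 8 h samples, against 4.49, 4.15, 4.70 and 4.53 in the unstimulated samples. Dusp6, a cytosolic phosphatase that acts on the kinase ERK, had 8.85, 8.58, 8.83 and 8.55 at 8 h, against 4.60, 4.03, 3.99 and 4.37 unstimulated. The groups did not overlap for either gene, and both started near background, with rises of 31.7-fold and 21.9-fold. Dusp2, a nuclear phosphatase, rose 4.96-fold and Spred1 3.34-fold, whereas Dusp10 and Dusp7 fell 1.92-fold and 1.38-fold. Dusp1, a stress-induced member, was not called (difference -0.09, adjusted p = 0.514). Of the 15 genes of this list 8 were higher and 2 lower, against 18.9% and 20.8% of all genes. At 24 h Dusp6 did not differ from its 8 h level beyond the spread, with 8.77 ± 0.17 at 24 h and 8.70 ± 0.16 at 8 h (adjusted p = 0.816), and Spry1 was 1.85-fold lower than at 8 h.

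Orai1 and Nfatc1 rose while their relatives Orai2 and Nfatc3 fell. The store-operated channel gene Orai1 rose 2.31-fold and its relative Orai2 fell 3.54-fold, and the calcium sensor Stim2 rose 1.49-fold. Nfatc1, the NFAT member induced by its own pathway, had 9.74, 9.66, 9.93 and 9.76 at 8 h, against 7.70, 7.58, 8.09 and 7.87 unstimulated, a rise of 3.9-fold (2.57-fold with all probe sets) without overlap. Nfatc3 fell 2.27-fold, and Nfatc2 was not called (difference -0.18). Ppp3ca, a catalytic subunit of calcineurin, fell 3.04-fold. Of the calcium list 4 of 18 were higher and 9 lower, against 18.9% and 20.8% of all genes, so that the share of rises was near that of all genes.

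Cd3d, Cd3e and Cd3g, genes of CD3 chains, did not pass the test, while several regulators of the receptor did. Of 26 genes of the receptor and proximal signalling list, 8 were higher and 10 lower, against 18.9% and 20.8% of all genes. Cd3d, Cd3e and Cd3g were not called (adjusted p = 0.622, 0.163 and 0.570), and Cd247, the zeta chain, fell 1.9-fold. For Cd3e and Cd3g every 8 h sample nevertheless lay above every unstimulated one, with differences of 0.15 for both. Cd5, a surface brake whose level follows receptor signal strength, had 10.81, 10.83, 10.93 and 10.87 at 8 h, against 8.95, 8.82, 9.06 and 8.82 unstimulated, and every 8 h sample was higher. Cd6 rose 3.08-fold, the phosphatase gene Ptpn6 4.22-fold and the adaptor gene Lcp2 3.56-fold. Txk, a kinase of the Tec family, had 6.30, 5.77, 5.65 and 5.93 at 8 h, against 7.71, 8.01, 8.08 and 8.02 unstimulated, a fall of 4.11-fold. Dgka, which removes the second messenger diacylglycerol, fell 2.51-fold and Rasgrp1, which that messenger recruits, 1.97-fold.

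Il2, Tnf, several chemokine genes and Lif rose by 8 h, and the lineage cytokine genes Il4 and Il21 were near background in both groups. Il2, the T cell growth factor gene, had 11.16, 11.52, 11.81 and 11.74 in the 8 h samples, against 3.97, 4.43, 4.82 and 4.51 in the unstimulated samples. Tnf had 8.39, 8.39, 8.70 and 8.64 at 8 h, against 5.69, 5.35, 5.12 and 5.27 unstimulated. Xcl1, a chemokine gene for cross-presenting dendritic cells, had 9.26, 9.23, 9.21 and 9.04 at 8 h, against 4.43, 4.90, 4.89 and 4.83 unstimulated. All 3 genes were higher in every 8 h sample and had unstimulated means near background, with a log2 difference of 7.13 ± 0.17 (SE) for Il2 and measured rises of 9.01-fold for Tnf and 21.4-fold for Xcl1. Ccl3, an inflammatory chemokine gene, had 8.18, 8.02, 8.18 and 7.83 at 8 h, against 4.22, 3.87, 4.13 and 3.20 unstimulated, Ccl4 rose 10.3-fold, Lif 6.12-fold (2.28-fold with all probe sets) and Il3 4.97-fold, all 4 from near background. By 24 h Xcl1 was 3.68-fold lower than at 8 h and Ccl3 2.86-fold higher (adjusted p = 3.04e-09 and 3.34e-05). Ifng, the interferon of Th1 cells, was called with 3.96 ± 0.42 at 8 h and 3.05 ± 0.07 unstimulated, but both lie near background, as does Csf2 at 4.75 ± 0.16 at 8 h and 4.19 ± 0.12 unstimulated. Il4 and Il21 were not called, at 4.14 ± 0.09 and 3.69 ± 0.27 at 8 h and 4.22 ± 0.06 and 3.69 ± 0.08 unstimulated. Of 30 listed cytokine and chemokine genes 14 were higher and 1 lower, against 18.9% and 20.8% of all genes, and 16 were near background in both groups. The lower gene was Ltb, at 7.86 ± 0.14 at 8 h against 8.32 ± 0.20 unstimulated, and its call was lost when any 1 of 8 h replicates 2, 3 and 4 or unstimulated replicates 1 and 3 was left out, and with the arrays centred on their medians.

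**Figure D2:**
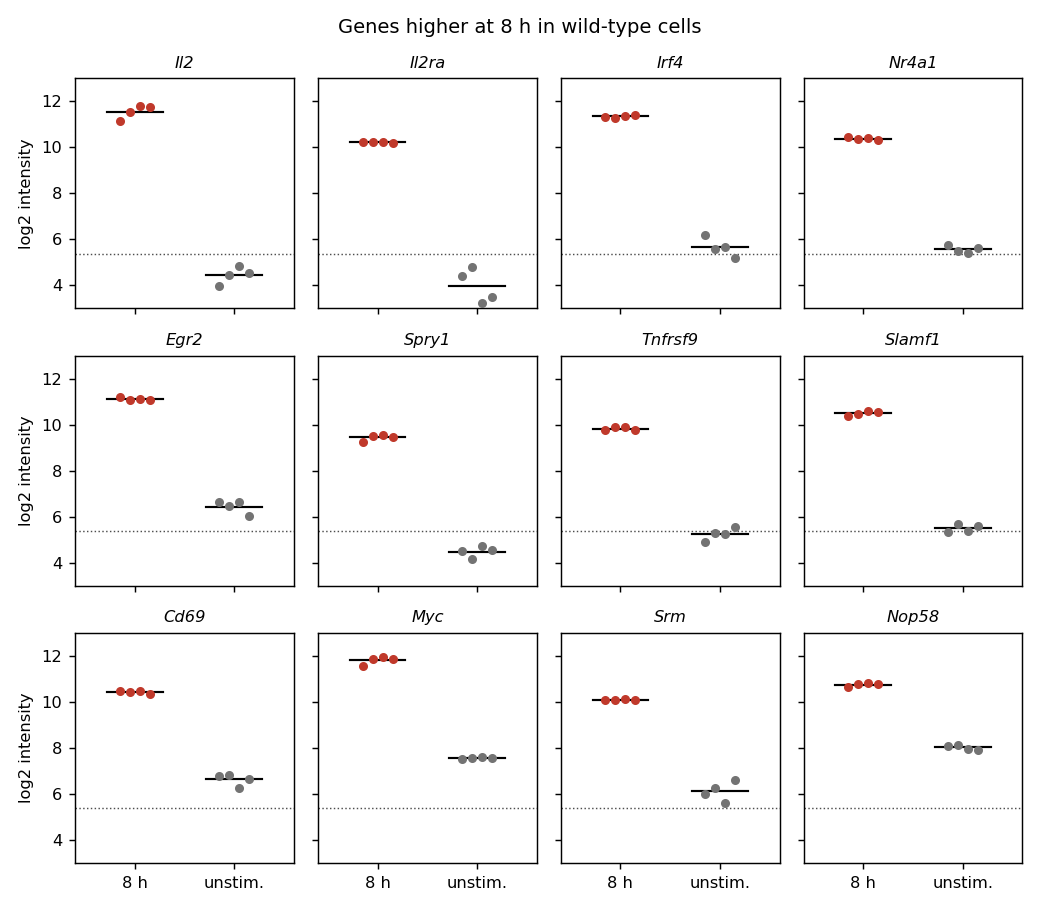
Log2 intensity of 12 genes that rose, in each of the 4 wild-type 8 h samples (red points) and the 4 wild-type unstimulated samples (grey points), with a bar at each group mean; the dotted line marks the level under which a value is near background. In each panel the red points lie wholly above the grey ones.

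Promoter sequence is shown for 4 induced genes to set the letters of known activation-responsive promoters beside the values given here. The windows run from 250 bases before to 50 after the RefSeq start on build GRCm38.p6, 5′ to 3′ on the gene's strand. Capitals mark matches, on either strand, to AP-1 (TGANTCA), the NFAT core (GGAAA), the cyclic AMP element (TGACGTCA), the E-box (CACGTG), the NF-kappaB motif and Egr (GCGNGGGCG).
Il2: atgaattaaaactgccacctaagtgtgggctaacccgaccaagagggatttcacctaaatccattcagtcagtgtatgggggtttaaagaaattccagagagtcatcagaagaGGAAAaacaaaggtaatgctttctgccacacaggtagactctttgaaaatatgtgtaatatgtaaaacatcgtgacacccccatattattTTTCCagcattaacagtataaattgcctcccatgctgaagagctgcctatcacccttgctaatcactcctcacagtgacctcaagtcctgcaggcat
Tnf: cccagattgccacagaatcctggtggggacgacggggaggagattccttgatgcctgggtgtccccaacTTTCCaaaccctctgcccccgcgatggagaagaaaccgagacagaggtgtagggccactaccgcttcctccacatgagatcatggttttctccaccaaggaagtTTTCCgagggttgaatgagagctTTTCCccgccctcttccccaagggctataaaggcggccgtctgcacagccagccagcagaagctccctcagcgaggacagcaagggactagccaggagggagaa
Irf4: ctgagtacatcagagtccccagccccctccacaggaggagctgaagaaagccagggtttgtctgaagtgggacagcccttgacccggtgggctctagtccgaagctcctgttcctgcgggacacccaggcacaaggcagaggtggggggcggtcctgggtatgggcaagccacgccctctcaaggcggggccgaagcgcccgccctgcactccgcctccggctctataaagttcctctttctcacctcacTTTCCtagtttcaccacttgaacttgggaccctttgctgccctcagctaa
Nr4a1: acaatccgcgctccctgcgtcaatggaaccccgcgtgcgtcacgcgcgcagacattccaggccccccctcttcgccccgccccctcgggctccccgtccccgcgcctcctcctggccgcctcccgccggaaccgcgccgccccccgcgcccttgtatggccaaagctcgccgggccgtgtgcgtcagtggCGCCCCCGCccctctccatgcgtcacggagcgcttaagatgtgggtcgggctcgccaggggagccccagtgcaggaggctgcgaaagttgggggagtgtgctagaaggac
The Il2 window, at chr3:37125905-37126204 on the minus strand, held 2 NFAT cores, and that of Tnf, at chr17:35201958-35202257 on the minus strand, held 3. The Irf4 window, at chr13:30748983-30749282 on the plus strand, held 1 NFAT core, and the Nr4a1 window, at chr15:101266596-101266895 on the plus strand, held 1 Egr match. These letters are short and common, since 59.4% of 13605 measured genes with such a window held the NFAT core and 8.95% the Egr letters. Among the 212 windows of genes at least 4-fold higher at 8 h the NFAT core was in 64.2%, the AP-1 letters in 6.6% and the E-box in 17.9%, against 59.4%, 6.45% and 9.0% of all windows. The cyclic AMP element was in 3.77%, the NF-kappaB motif in 5.66% and the Egr letters in 4.25% of them, against 2.69%, 5.9% and 8.95% of all windows. The shares are descriptions of letters in this window and were not tested.

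Among the receptors for cytokines Il2ra and Il2rb rose, and Ifngr1, Ifngr2, Il6ra and Tgfbr2 fell. Il2ra, the chain that gives high affinity, had 10.24, 10.22, 10.24 and 10.20 in the 8 h samples, against 4.41, 4.80, 3.20 and 3.47 in the unstimulated samples. Il2rb, the signalling chain, had 8.09, 8.07, 8.36 and 7.76 at 8 h, against 6.11, 6.31, 6.20 and 5.83 unstimulated. Both were higher in every 8 h sample, Il2ra, from near background, by 6.25 on the log2 scale (4.65 with all probe sets) and Il2rb by 3.88-fold, and Il2rb was a further 3.89-fold higher at 24 h while Il2ra did not differ between 8 h and 24 h beyond the spread (adjusted p = 0.695). Il21r rose 2.49-fold and Il12rb1, from near background, 1.85-fold. Ifngr1, a chain of the interferon gamma receptor, had 7.94, 7.78, 7.23 and 7.13 at 8 h, against 9.14, 9.32, 9.13 and 9.22 unstimulated. Its partner Ifngr2 fell 2.45-fold, Il6ra 2.55-fold and Tgfbr2 2.35-fold, and none of these groups overlapped. Il4ra was not called (difference -0.12, adjusted p = 0.550). The list had 4 of 22 higher and 11 lower, against 18.9% and 20.8% of all genes, so that the share of rises was near that of all genes.

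Below the receptors, genes of the JAK, STAT, SOCS and CISH list had 10 of 22 higher and 5 lower, against 18.9% and 20.8% of all genes. Jak2 rose 3.02-fold and Jak1, a kinase shared by many cytokine receptors, fell 2.53-fold. Stat5b fell 2.62-fold and Stat4, the Il12 signal transducer, 3.27-fold. Cish, a feedback gene of Stat5, rose 4.09-fold, the kinase gene Pim3 3.93-fold and Socs1, from near background, 1.68-fold.

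Surface molecules of the TNF superfamily and the costimulatory and inhibitory receptors rose in most cases that passed the test. Slamf1, a homotypic receptor that recruits SAP, had 10.37, 10.48, 10.62 and 10.56 in the 8 h samples, against 5.35, 5.66, 5.35 and 5.59 in the unstimulated samples. Tnfrsf9, also called 4-1BB, had 9.79, 9.88, 9.88 and 9.77 at 8 h, against 4.91, 5.28, 5.25 and 5.56 unstimulated. Cd69, which holds activated cells in the lymph node, had 10.48, 10.43, 10.48 and 10.33 at 8 h, against 6.80, 6.82, 6.25 and 6.66 unstimulated. The groups stayed apart for all 3, with rises of 32.5-fold, 24-fold (11.1-fold with all probe sets) and 13.9-fold. Tnfsf11, the ligand RANKL, rose 25.7-fold (10.7-fold with all probe sets), Tnfsf8, the CD30 ligand, 7.73-fold, Cd40lg, which licenses B cells and dendritic cells, 5.5-fold and Tnfrsf4, also called OX40, 5.49-fold. The unstimulated means of Tnfrsf9, Tnfsf11 and Tnfsf8 were near background, at 5.25 ± 0.27, 3.78 ± 0.31 and 5.12 ± 0.29, so their folds are of measured intensities only. Among inhibitory molecules Pdcd1, which encodes PD-1, rose 14-fold and Cd200 12.3-fold, both from near background, and Cd274, the ligand of PD-1, 10.02-fold. Ctla4 was not called at 8 h, with 6.82 ± 0.08 at 8 h and 6.61 ± 0.12 unstimulated (adjusted p = 0.297), and was 5.88-fold higher at 24 h than at 8 h (adjusted p = 3.1e-13). Its 8 h samples nevertheless all lay above the unstimulated ones, with a difference of 0.21, and it gained a call under some alternative. Cd28 was not called (difference -0.10), Icos rose 3.52-fold and Cd96 fell 2.35-fold. In the TNF superfamily 13 of 21 were higher and 1 lower, and among costimulatory and inhibitory receptors 13 of 23 were higher and 3 lower. Over all genes 18.9% were higher and 20.8% lower.

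Trafficking genes had 6 of 21 higher and 8 lower, against 18.9% and 20.8% of all genes. S1pr1, the receptor by which T cells leave lymph nodes, had 8.83, 8.21, 7.26 and 8.03 in the 8 h samples, against 10.64, 10.65, 10.52 and 10.82 in the unstimulated samples. Itga4, the alpha chain of the integrin VLA-4, had 8.74, 8.41, 7.70 and 8.38 at 8 h, against 10.78, 10.58, 10.73 and 10.68 unstimulated. Every 8 h sample was lower for both, with a log2 difference of -2.58 ± 0.21 (SE) for S1pr1, and S1pr1 was a further 2.8-fold lower at 24 h, whereas Itga4 was 1.48-fold higher at 24 h than at 8 h, a call lost without 8 h replicate 3. Selplg, the selectin ligand PSGL-1, fell 3.66-fold and S1pr4 2.85-fold. Itgal and Itgb2, the chains of LFA-1, rose 2.79-fold and 2.06-fold, and Cd44 and Ccr4, both from near background, 3.28-fold and 3.75-fold.

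Genes of the resting state fell, and many fell further by 24 h. Klf2, a factor that keeps T cells quiescent, had 9.52, 8.96, 8.51 and 8.54 in the 8 h samples, against 10.41, 10.55, 10.36 and 10.46 in the unstimulated samples. Cdkn1b, the cell cycle inhibitor p27, had 9.74, 9.34, 8.70 and 9.20 at 8 h, against 11.27, 11.15, 11.33 and 11.05 unstimulated. Tsc22d3, a leucine zipper gene induced by glucocorticoids, had 7.73, 7.46, 6.58 and 6.84 at 8 h, against 9.41, 9.38, 9.37 and 9.46 unstimulated. In each case every 8 h sample was lower, by 2.96-fold, 3.87-fold and 4.76-fold (2.73-fold with all probe sets of Tsc22d3). Replicate 1 of the 8 h group was the highest of the 4 for all 3 genes. Klf3 fell 4.11-fold, Klf6 3.21-fold, the naive T cell factor Lef1 2.81-fold, Satb1 1.82-fold and Sesn1, an inhibitor of mTORC1, 4.31-fold. Bach2, which also keeps T cells naive, was not called (difference 0.01), and Ddit4, another mTORC1 inhibitor, rose 1.84-fold. Of 24 genes 18 were lower and 4 higher, against 20.8% and 18.9% of all genes. Between 8 h and 24 h 14 were lower, against 11.0% of all genes. The Gimap GTPases, survival proteins of resting lymphocytes, had 7 of 8 lower, with Gimap4 at 10.91, 10.64, 10.42 and 10.31 at 8 h, against 11.56, 11.58, 11.55 and 11.57 unstimulated. Gimap1 differed by -0.40 and was not called (adjusted p = 0.0589). In limma's test it was called lower with only wild-type samples in the fit (adjusted p = 0.00077). The same held for only the 2 groups compared (0.00246) and for array weights (0.00192). It was also called lower with the dim filter, cyclic loess, the replicate block or without 8 h replicate 1. It was not called when any other sample was left out or with arrays centred on their medians.

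**Figure D3:**
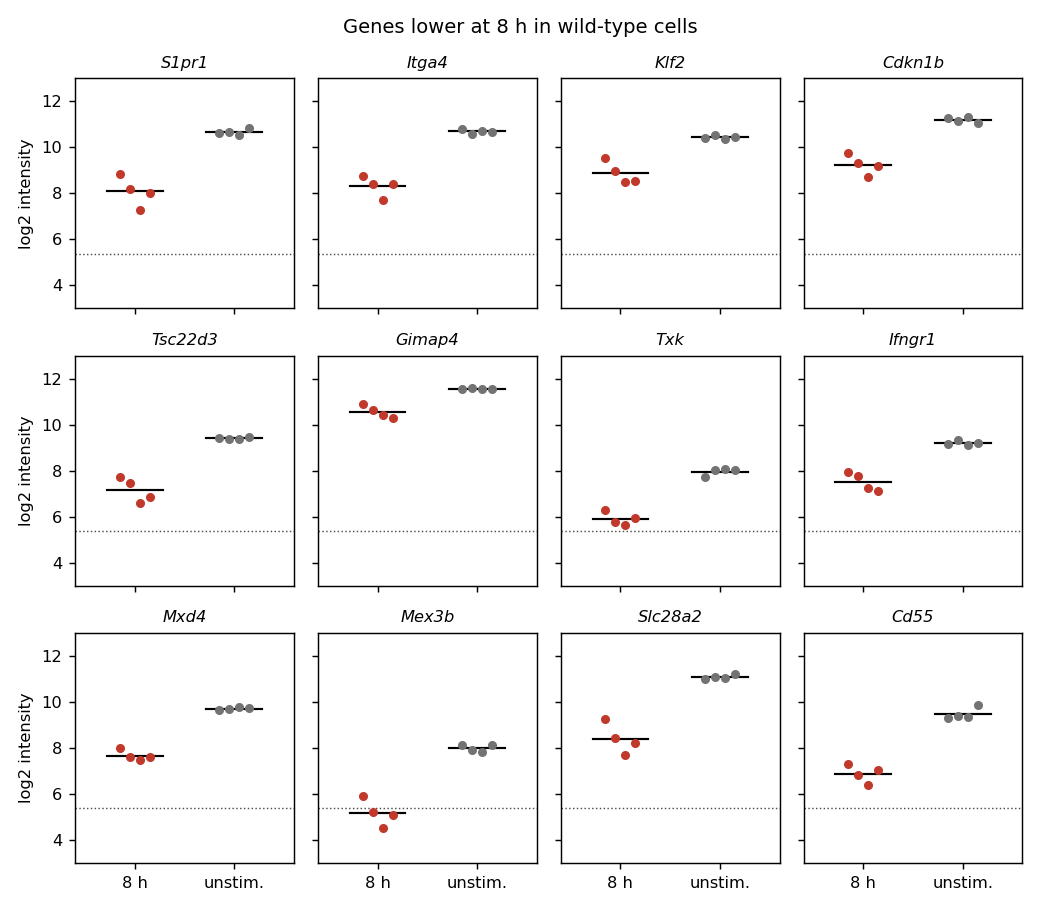
Log2 intensity of 12 genes that fell, in each of the 4 wild-type 8 h samples (red points) and the 4 wild-type unstimulated samples (grey points), with a bar at each group mean; the dotted line marks the level under which a value is near background. In each panel the red points lie wholly below the grey ones.

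Most of the 25 genes with the largest falls belonged to none of the lists. Mex3b, an RNA-binding protein gene, had 5.91, 5.20, 4.51 and 5.07 in the 8 h samples, against 8.12, 7.91, 7.84 and 8.12 in the unstimulated samples. Slc28a2, a nucleoside transporter gene, had 9.25, 8.44, 7.70 and 8.21 at 8 h, against 11.02, 11.09, 11.04 and 11.24 unstimulated. Cd55, which shields cells from complement, had 7.31, 6.82, 6.40 and 7.03 at 8 h, against 9.30, 9.38, 9.36 and 9.86 unstimulated. The falls were 7.1-fold, 6.5-fold and 6.0-fold, that of Mex3b to a mean near background. Only genes without overlap between the groups could enter this set of 25, so their separation is no separate result. Cd55 has a close copy, Cd55b, which fell 5.26-fold to near background (2.99-fold with all probe sets), and probe sets may read both. Rasgrp2, an activator of the GTPase Rap1, fell 4.64-fold, St8sia6, a sialyltransferase, 6.24-fold, and Rnf125, a ubiquitin ligase, 4.99-fold.

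The factors Irf4, Irf8, Bcl6 and Tbx21 rose by 8 h and moved apart afterwards. Irf4, which couples receptor strength to effector programmes, had 11.31, 11.29, 11.37 and 11.40 in the 8 h samples, against 6.19, 5.59, 5.66 and 5.17 in the unstimulated samples. Irf8 had 7.96, 8.10, 8.26 and 7.26 at 8 h, against 5.60, 5.37, 5.58 and 5.44 unstimulated. Bcl6, the factor of follicular helper cells, had 9.44, 9.32, 9.19 and 9.31 at 8 h, against 8.04, 7.71, 7.98 and 7.49 unstimulated. All 3 were higher in every 8 h sample, by 51.8-fold, 5.25-fold and 2.85-fold, and at 24 h Irf8 was 3.23-fold higher than at 8 h while Bcl6 was 3.72-fold and Irf4 1.83-fold lower. Tbx21, which encodes T-bet, was at 3.17 ± 0.18 unstimulated, 5.60 ± 0.69 at 8 h and 7.96 ± 0.80 at 24 h. Gata3 was not called (difference -0.29, adjusted p = 0.206), Rora fell 2.29-fold by its brightest probe set (1.47-fold with all) while 1 of its other probe sets was called higher, and Id3 rose 4.0-fold. Of the helper lineage list 8 of 21 were higher and 3 lower, against 18.9% and 20.8% of all genes (5 lower with array weights).

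Myc rose while its antagonists Mxd4 and Mxi1 fell. Myc, a transcription factor gene on which T cell enlargement is known to depend, had 11.56, 11.88, 11.95 and 11.86 in the 8 h samples, against 7.52, 7.56, 7.60 and 7.57 in the unstimulated samples. Mxd4, a repressor that competes for its partner Max, had 7.99, 7.59, 7.50 and 7.63 at 8 h, against 9.64, 9.72, 9.78 and 9.75 unstimulated, and Mxi1 fell 2.51-fold. The Myc samples and the Mxd4 samples did not overlap between groups, with a log2 difference of 4.25 ± 0.10 (SE) for Myc and a fall of 4.13-fold. Of 12 genes 3 were higher and 5 lower, against 18.9% and 20.8% of all genes.

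Genes for making ribosomes and charging tRNA rose almost without exception, although genes of the ribosomal proteins did not. Of 43 ribosome biogenesis and nucleolar genes 42 were higher, 37 of them at least 2-fold against 6.72% of all genes, with a median difference of 2.08. Nop58, a core protein of box C/D particles, had 10.64, 10.78, 10.82 and 10.81 at 8 h, against 8.08, 8.14, 7.97 and 7.92 unstimulated. Gar1, of the particles that make pseudouridine, rose 6.53-fold and the helicase gene Ddx21 5.49-fold. All 19 measured cytosolic tRNA synthetase genes and their scaffold genes were called higher, with Kars, the lysyl enzyme, up 4.76-fold and the scaffold Aimp2 5.56-fold. Translation factors had 17 of 23 higher and 2 lower (4 lower with cyclic loess), led by Eef1e1 at 9.10, 9.51, 9.52 and 9.38 at 8 h, against 6.67, 6.51, 6.65 and 6.44 unstimulated. Eif4ebp2, a repressor of cap-dependent translation, fell 1.7-fold. The median difference over 36 cytosolic ribosomal protein genes was -0.03. Of them 6 were higher and 4 lower, against 18.9% and 20.8% of all genes, a share of rises near that of all genes. Those counts depended on the scaling, with 2 higher and 23 lower after cyclic loess and 11 higher and 7 lower with the mean of all probe sets. Rps2 rose 1.36-fold and Rps14 fell 1.24-fold.

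**Figure D4:**
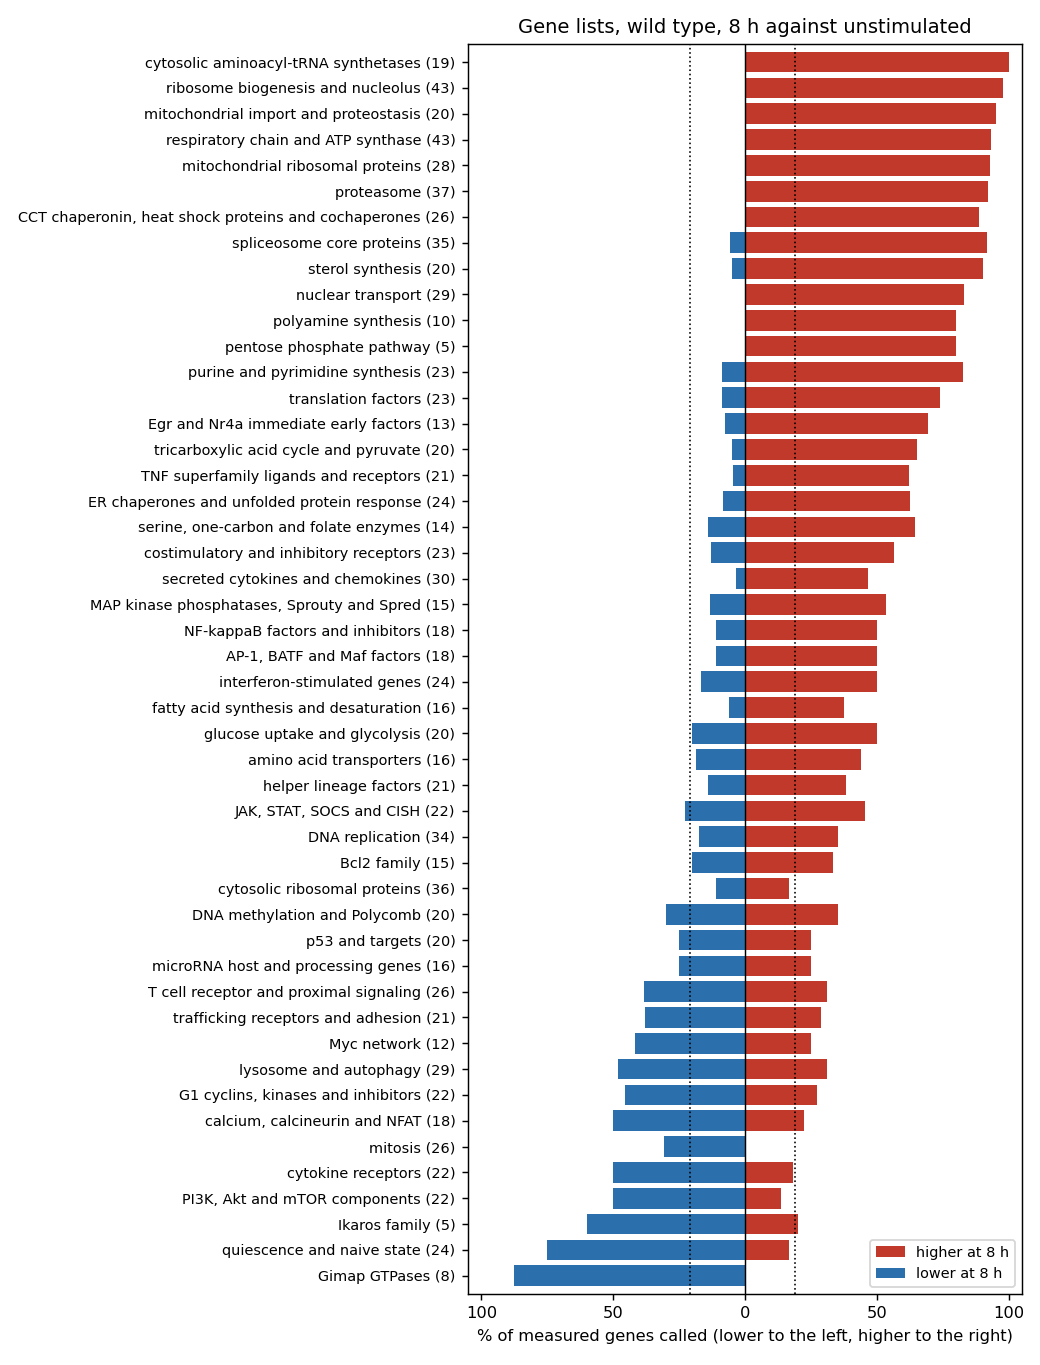
For each gene list, the percentage of its measured genes called higher (red, to the right) and lower (blue, to the left) in wild-type cells at 8 h against unstimulated cells, with the number of measured genes beside the name; dotted lines mark the share of all genes called in each direction. Growth and mitochondrial lists reach furthest to the right and the quiescence and Gimap lists furthest to the left.

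Genes of protein folding and turnover rose. Of 26 chaperonin and heat shock genes 23 were higher. Hspe1, the mitochondrial cochaperonin, had 11.80, 11.97, 11.99 and 11.95 at 8 h, against 9.54, 9.72, 9.56 and 9.45 unstimulated. Cct6a, a subunit of the chaperonin that folds actin and tubulin, rose 3.52-fold and Hsph1 3.63-fold, whereas the stress-inducible cochaperones Dnaja1 and Dnajb1 were not called (differences -0.02 and -0.01). In the endoplasmic reticulum 15 of 24 genes rose and 2 fell (only Edem1 when any 1 of the 8 h replicates or unstimulated replicates 2, 3 and 4 was left out), with Hspa5, the chaperone BiP, up 3.12-fold and Edem1, which takes misfolded proteins to disposal, down 1.64-fold. Ddit3, the stress factor CHOP, was not called (difference 0.06). Proteasome genes had 34 of 37 higher, and the 3 that were not called were Psmb8, Psmb9 and Psmb10, the catalytic subunits of the immunoproteasome, with differences of -0.09, 0.19 and -0.24 (Psmb10 was called lower without unstimulated replicate 2). Psma5, a subunit of the core ring, had 10.26, 10.51, 10.60 and 10.61 at 8 h, against 9.06, 8.78, 8.82 and 8.74 unstimulated. RNA handling moved likewise, with 32 of 35 spliceosome genes higher and 2 lower, Snrpd1 up 5.04-fold, and 24 of 29 nuclear transport genes higher, Ipo5, an importin of ribosomal proteins, by 5.53-fold.

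Most genes of nucleotide and polyamine synthesis rose. Srm, spermidine synthase, had 10.07, 10.10, 10.16 and 10.10 in the 8 h samples, against 6.00, 6.26, 5.60 and 6.59 in the unstimulated samples. Nme1, a nucleoside diphosphate kinase, had 10.57, 10.71, 10.78 and 10.76 at 8 h, against 7.20, 7.06, 7.02 and 7.21 unstimulated. Cad, which starts pyrimidine synthesis, had 8.96, 8.93, 9.16 and 8.88 at 8 h, against 5.73, 6.09, 5.37 and 5.70 unstimulated. Every 8 h sample was higher for these 3 enzymes, by 16-fold, 12-fold (4.74-fold with all probe sets) and 9.57-fold. Odc1, the first polyamine enzyme, rose 4.82-fold and Pfas, of the purine pathway, 5.73-fold, whereas Dck, which salvages deoxynucleosides, fell 3.55-fold and Rrm2, the ribonucleotide reductase subunit of S phase, was not called and near background (adjusted p = 0.210). Nucleotide synthesis had 19 of 23 genes higher and 2 lower, and polyamine synthesis 8 of 10 higher. Over all genes 18.9% were called higher and 20.8% lower. In the serine and folate list 9 of 14 rose and 2 fell, with Psat1 up 9.26-fold and Mthfd1 7.48-fold.

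Some genes of nutrient uptake and sugar use rose and others fell. Slc7a5, the large neutral amino acid carrier, had 9.23, 9.38, 9.57 and 9.38 in the 8 h samples, against 6.65, 6.55, 6.43 and 6.36 in the unstimulated samples. Slc1a5, a glutamine carrier, rose 4.95-fold and Slc7a1, for arginine, 6.33-fold, whereas Slc38a2 and Slc36a1 fell 1.58-fold and 2.03-fold. Of 16 amino acid transporter genes 7 were higher and 3 lower, against 18.9% and 20.8% of all genes. Hk2, a hexokinase, had 8.50, 8.90, 9.04 and 9.16 at 8 h, against 6.48, 6.20, 6.38 and 5.91 unstimulated, and Slc16a1, a lactate carrier, rose 7.63-fold (4.7-fold with all probe sets). The groups did not overlap for Slc7a5 or Hk2, with rises of 7.41-fold and 6.32-fold. Pdk1, which holds pyruvate back from mitochondria, fell 2.58-fold, and the glucose carrier gene Slc2a1 rose 3.38-fold. Of 20 genes of glucose uptake and glycolysis 10 were higher and 4 lower at 8 h, against 18.9% and 20.8% of all genes. From 8 h to 24 h 16 were higher, against 17.4% of all genes. The number lower at 8 h was 1 without 8 h replicate 3 and 2 without 8 h replicate 4, unstimulated replicate 1 or unstimulated replicate 2. In sterol synthesis 18 of 20 rose and 1 fell. Idi1, isopentenyl diphosphate isomerase, was at 11.11, 11.06, 10.94 and 10.85 at 8 h, against 7.22, 6.77, 6.35 and 6.62 unstimulated. Fatty acid genes had 6 of 16 higher and 1 lower, Acaca, which makes malonyl-CoA, by 3.92-fold.

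Most genes of mitochondrial import, translation and respiration rose. Over all genes 18.9% were called higher and 20.8% lower at 8 h. Import and proteostasis genes had 19 of 20 higher with a median difference of 1.44, and mitochondrial ribosomal proteins 26 of 28 with a median of 1.34. Timm10, a carrier chaperone of the space between the membranes, had 9.13, 9.42, 9.48 and 9.35 at 8 h, against 5.98, 6.26, 6.05 and 5.77 unstimulated, without overlap. Respiratory chain and ATP synthase genes were higher in 40 of 43 cases with a lower median, 0.70, and 11 passed 2-fold, Cycs, cytochrome c, among them at 3.9-fold (2.1-fold with all probe sets). Of the tricarboxylic acid cycle genes 13 of 20 rose and 1 fell, with Idh3a up 3.34-fold and Sdha, of complex II, down 1.81-fold (without unstimulated replicate 2 the list had 2 lower). From 8 h to 24 h respiratory chain genes were higher in 33 of 43 cases and import genes in 2 of 20, against 17.4% of all genes.

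Genes of G1 had 6 of 22 higher and 10 lower at 8 h, against 18.9% and 20.8% of all genes, and most genes of DNA replication and mitosis were higher at 24 h than at 8 h. Cdk6, a kinase of G1, had 7.95, 8.40, 8.60 and 8.47 in the 8 h samples, against 5.53, 5.90, 6.17 and 5.70 in the unstimulated samples. Cdk4 rose 5.46-fold and its partner Ccnd2 3.0-fold (6.56-fold with all probe sets), while Ccnd3 fell 1.94-fold and Rbl2, the pocket protein of resting cells, 3.72-fold. Cdkn1a, the inhibitor p21, had 7.42, 7.94, 7.64 and 7.98 at 8 h, against 6.08, 5.23, 5.23 and 5.30 unstimulated, and rose 4.86-fold, opposite to Cdkn1b. The S phase cyclin genes Ccne1 and Ccne2 and E2f1 were not called (differences -0.12, 0.12 and 0.05). Mki67, a marker of dividing cells, had 5.0, 4.65, 5.82 and 5.16 at 8 h, against 5.76, 5.63, 5.40 and 5.36 unstimulated, with overlapping groups, and was not called (adjusted p = 0.113), but without 8 h replicate 3 it was called lower (adjusted p = 0.00575). Mcm5, a subunit of the replicative helicase, had 7.50, 7.58, 7.60 and 7.36 at 8 h, against 6.38, 6.46, 5.97 and 6.18 unstimulated, a rise of 2.4-fold, and was a further 5.42-fold higher at 24 h (2.94-fold with all probe sets). Replication genes had 12 of 34 higher and 6 lower at 8 h and 33 higher at 24 h against 8 h. That later comparison called 17.4% of all genes higher. Mitosis genes had 0 of 26 higher in limma's test and 8 lower at 8 h (0 higher and 9 lower at an unadjusted p under 0.05, and 13 near background in both groups), Cenpa, the centromeric histone, down 3.02-fold, and at 24 h against 8 h 26 of 26 were higher.

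**Figure D5:**
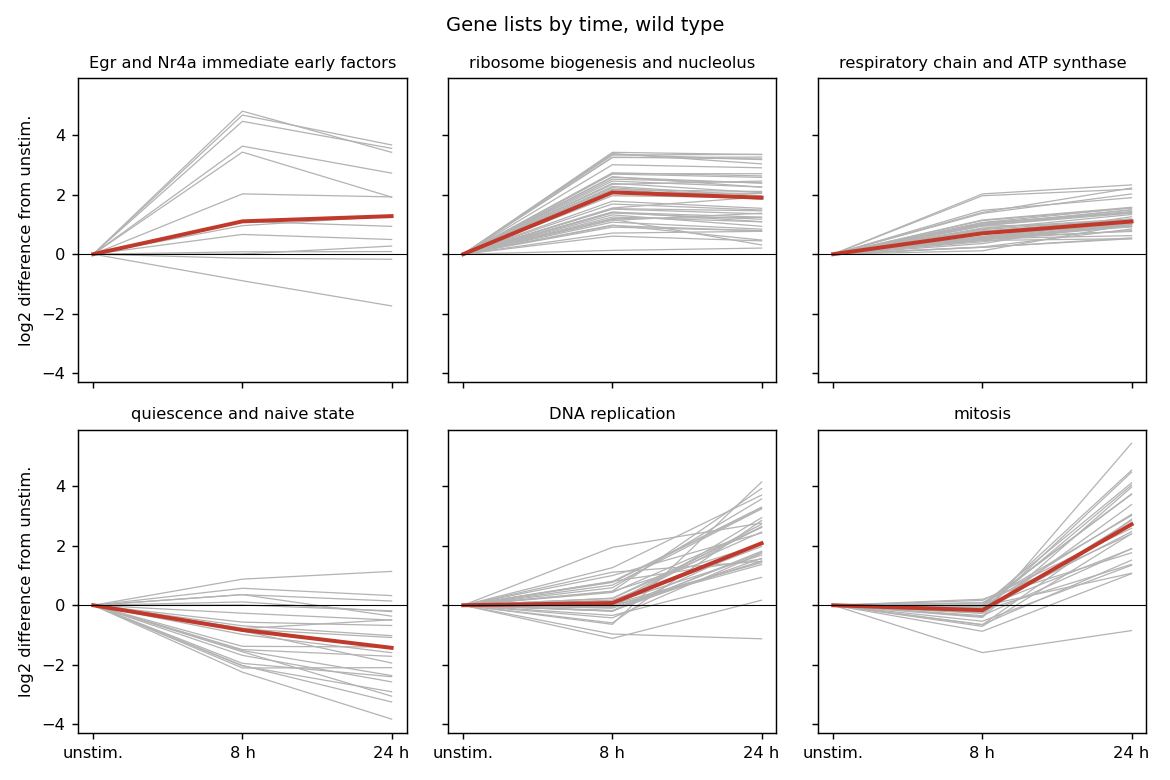
Mean log2 intensity of each measured gene of 6 lists in wild-type cells, unstimulated, at 8 h and at 24 h (n = 4 each), drawn as its difference from the unstimulated mean; thin lines are genes and the thick line is the list's median. Ribosome biogenesis genes have a median of 2.08 at 8 h, whereas DNA replication and mitosis genes lie near 0 at 8 h (medians 0.08 and -0.17) and rise by 24 h.

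The Bcl2 family, whose members protect from or promote cell death, had 5 of 15 genes higher and 3 lower, against 18.9% and 20.8% of all genes, so that the share of falls was near that of all genes. Bcl2a1a, an inhibitor of apoptosis induced by NF-kappaB, had 10.95, 11.15, 11.05 and 11.13 in the 8 h samples, against 6.29, 5.96, 6.14 and 6.23 in the unstimulated samples, a rise of 30.2-fold. It has near-identical copies, which the same probe set may read. Bcl2l1, which encodes Bcl-xL, rose 2.67-fold, Mcl1 fell 1.28-fold, and the killers Bid and Bak1 rose 3.43-fold (2.24-fold with all probe sets) and 1.7-fold while Bad fell 1.68-fold and Bbc3 1.43-fold. Bcl2l11, which encodes Bim, was not called (difference -0.18).

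Interferon-stimulated genes had 12 of 24 higher and 4 lower, against 18.9% and 20.8% of all genes. Gbp2, a guanylate-binding protein gene, had 11.17, 10.89, 10.65 and 9.64 in the 8 h samples, against 6.30, 6.33, 6.12 and 5.93 in the unstimulated samples, a rise of 21.3-fold, and Gbp3 rose 7.64-fold from near background. Ifit2, an antiviral gene, had 7.15, 6.73, 6.14 and 6.69 at 8 h, against 8.00, 7.97, 8.04 and 8.29 unstimulated, a fall of 2.63-fold, and the RNA sensor gene Ddx58 fell 2.1-fold. The groups did not overlap for Gbp2 or Ifit2. Irf7 and Irf9, factors of the interferon response, were not called (differences 0.13 and 0.20).

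Components of the PI3K and mTOR pathway fell more often than they rose. Pik3r1, the regulatory subunit of the kinase, had 8.16, 8.03, 7.83 and 7.77 in the 8 h samples, against 9.61, 9.36, 9.34 and 9.43 in the unstimulated samples. Pik3r5, another adaptor, fell 3.04-fold, Pik3cd, the catalytic subunit of lymphocytes, 2.0-fold and Rictor, which defines mTORC2, 2.1-fold. Rptor, which defines mTORC1, was not called (difference 0.23, adjusted p = 0.351), and Rheb, the GTPase that switches mTORC1 on, rose 2.02-fold. The list had 3 of 22 higher and 11 lower, against 18.9% and 20.8% of all genes.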

How the data were processed

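RNA of 24 samples was measured on Affymetrix HT MG-430 PM arrays. Per the submitters' processing notes the log2 values were made with RMA in Partek 6.5, and the deposited table holds 1 log2 value for each of 45141 probe sets and each sample, between 1.64 and 13.8. Replicates were not pooled, and the sequence of steps is not given in the sources used here. Of the probe sets 28898 were listed with 1 gene, 551 with several and 15692 with none, and only the first kind was used. Current symbols came from RefSeq through gene IDs, which matched for 28689. For each of 17097 genes the brightest probe set, by its mean level in the 24 samples, was taken, a choice that bears on 7180 genes with more than 1. limma 3.58.1 in R 4.3.3 fitted 6 group means (18 residual degrees of freedom, empirical Bayes), and p-values were adjusted by Benjamini-Hochberg within each comparison. Calls needed an adjusted p under 0.05. The number of arrays limits the precision. On simulated data with the same design 85.1% of 67 genes changed 1.5-fold and 100% of 67 changed 2-fold were recovered among 17097 genes, with 11 false calls. Besides these only 66 genes, changed 4-fold, differed in the simulation, whereas 6784 were called in the real comparison. The simulation therefore gives neither the recovered share in the real comparison nor its number of false calls. Named genes are the 25 largest rises and falls, genes of the lists and a fixed set. The members and lists were chosen with earlier results of these data known. Alternatives were averaging a gene's probe sets, a filter on dim genes, cyclic loess, centring on array medians, array weights, an intensity trend with robust prior, smaller fits, a replicate block and leaving out each sample. Promoter windows came from RefSeq. Some genes are not reported here.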

Additional observations from a re-analysis of the deposited data

Results flagged for a closer look

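Among the 54 genes given by sample, each with 4 samples at 8 h and 4 unstimulated, 4 of 108 groups held a sample whose gap to the nearest other sample over the group's range passed Dixon's critical value for 4 samples, and chance gives about 1 in 20 groups. All 4 were unstimulated groups. Fos had 3.67 in unstimulated replicate 3, below the other unstimulated samples, a level near background. Xcl1 had 4.43 in unstimulated replicate 1, below the others and also near background. Cd55 had 9.86 in unstimulated replicate 4, above the others. Cdkn1a had 6.08 in unstimulated replicate 1, above the others. For none of these 4 genes did the 8 h and the unstimulated samples overlap.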

How the results depend on the processing

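For the comparison of 8 h with unstimulated cells every count over all genes stayed within 1.5 times of its value under each of the alternatives run. Which direction had more genes depended on the scaling. Against 3229 higher and 3555 lower, arrays centred on their medians gave 3553 higher and 3085 lower. Cyclic loess gave 3360 higher and 3369 lower. The shares of all genes given above hold for the deposited scaling. Leaving out 1 sample at a time gave 6245 to 6603 called genes, against 6784 with all samples, and 593 to 796 genes at least 2-fold lower, against 681. The number was 5826 with the filter on dim genes, 7367 with array weights, 7004 with the mean of all probe sets and 7226 with wild-type samples alone in the fit. For 24 h against 8 h the number called lower was 3028 with arrays centred on their medians, against 1878. The number called higher was 2452, against 2967. The mean of the array medians was 5.554 at 24 h and 5.478 at 8 h. Centring takes this difference of 0.0756 out of the difference of every gene. Why the medians differed was not tested. Correlations of deviations between samples of the same number were 0.00217, 0.0994, 0.0641 and -0.0635 for 8 h and unstimulated cells. Samples of different numbers gave -0.0916 to 0.0642. For 24 h and 8 h cells the same numbers gave 0.079, 0.0154, 0.077 and 0.0388, and different numbers -0.104 to 0.0496. So few values cannot decide whether replicate numbers pair the samples. With the replicate block 6771 genes were called at 8 h (3242 higher and 3529 lower) and 4844 at 24 h against 8 h. Among the named genes the block changed 1 call, that of Gimap1 (adjusted p = 0.0432 in limma's test, over a range of 0.00077 to 0.124 across the alternatives). Of 3933 gene values under an alternative at 8 h, 9 lost a call (Jun, Jund and Ltb) and 16 gained one, and no called gene turned its direction. The genes that gained one were Gimap1, Psmb10, Mki67, Ctla4, Rrm2, Nfkbia, Dnaja1, Bcl2l11 and Ago2, the last 4 only with cyclic loess. The named genes included the largest changes and the list members with the smallest p. Few lost calls follow in part from that choice and do not speak for other genes. Of 116 list counts, which take all measured members, 33 moved by over 1.5 times under some alternative. Near background a fold is that of the measured intensities only.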

Other observations

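Among DNA methylation and Polycomb genes 7 of 20 were higher and 6 lower, against 18.9% and 20.8% of all genes. Ezh2, the methyltransferase of dividing cells, rose 1.54-fold while its relative Ezh1, used in resting cells, fell 2.07-fold. Dnmt3a, a de novo DNA methyltransferase gene, had 10.17 ± 0.12 at 8 h and 8.97 ± 0.09 in unstimulated cells (SD, n = 4 each), a rise of 2.3-fold, and Bmi1 rose 2.42-fold while Cbx7, of the same Polycomb complex, fell 1.85-fold. Zfp36l1, a protein that marks AU-rich RNA for decay, rose 3.02-fold, and its relative Zfp36l2 fell 2.0-fold. Of 16 microRNA host and processing genes 4 were higher and 4 lower, against 18.9% and 20.8% of all genes. Mir17hg, the host transcript of the miR-17 cluster, rose 1.86-fold, and Ago1, Ago2 and Dgcr8 were among those not called (differences -0.15, -0.10 and 0.12).

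Lysosome and autophagy genes were lower in 14 of 29 cases and higher in 9, against 20.8% and 18.9% of all genes. Ulk1, a kinase that starts autophagy, fell 2.41-fold, the lysosomal channel gene Mcoln1 1.81-fold and Ctsd, a lysosomal protease, 2.08-fold, whereas the proteases Ctsz and Ctsc rose 2.45-fold and 2.29-fold. Of the p53 list 5 of 20 were higher and 5 lower, near the 18.9% and 20.8% of all genes, with Aen, a nuclease gene, up 4.46-fold, Gadd45b up 3.55-fold and Sesn1 down 4.31-fold. Of the Ikaros family 1 of 5 was higher and 3 lower, or 1 lower without 8 h replicate 2, against 18.9% and 20.8% of all genes. The higher gene was Ikzf3, which encodes Aiolos and rose 1.72-fold. Among the 25 largest rises were also Ybx3, a cold shock domain protein gene, at 9.83 ± 0.20 at 8 h against 4.74 ± 0.24, near background, unstimulated, Chst2, a sulfotransferase gene, at 10.74 ± 0.06 at 8 h against 5.90 ± 0.16 unstimulated (5.82-fold with the mean of all probe sets), Bcat1, which breaks down branched amino acids, at 8.05 ± 0.28 at 8 h against 3.21 ± 0.28, near background, unstimulated (8.03-fold), and Gfi1, a repressor gene, at 10.21 ± 0.03 at 8 h against 5.99 ± 0.20 unstimulated.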
